A study of Rattus norvegicus with 5 samples.

Results

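Cerebellar granule cells, the small excitatory neurons that make up most of the cerebellum, were compared on day 5 of culture with and without ICRF-193, an inhibitor of DNA topoisomerase II (topo II). Members were all genes whose signal reached a floor, defined below, on the treated or the untreated Affymetrix array. They were 10562 of the 14213 genes named on the Affymetrix array. The cells came from cerebella of Wistar rats 8 days old and were grown in DMEM with 10% FCS and 25 mM KCl. Untreated cells (D5) and treated cells (D5+) shared 10 µM cytosine arabinoside, which holds back dividing glia. D5+ cells also received 10 µM ICRF-193 daily from the start. No genotype differs between the groups, and the number of animals or dishes behind each RNA is not given in the sources used here. D5 and D5+ were each hybridized to 1 Affymetrix array, and a two-colour array carried D5 (Cy5) against D5+ (Cy3), so 3 of the 5 arrays in the series were used. The precision is limited by this number of arrays: neither condition was repeated, no p-value was computed, and each difference below is between these arrays.

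Topo II cuts both strands of a DNA helix, passes another helix through the gap and reseals it, which removes knots and supercoils. Vertebrates have a form that is most abundant in dividing cells, topo IIα (Top2a), and a form that neurons keep after their last division, topo IIβ (Top2b). ICRF-193 holds topo II as a closed clamp around DNA without leaving a cut, and the blocked β form is degraded in cells. Granule cells leave the cell cycle at about the time they are plated, then extend neurites and build receptors, channels and synapses while in culture.

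The deposited Affymetrix values are linear signals made by the MAS5 algorithm. A floor was set at the 40th percentile of each array, 16.7 on D5 and 16.3 on D5+, and genes under it on both were set aside. Of the 10562 expressed genes, 622 were at least 2-fold lower on D5+ (5.89%) and 342 at least 2-fold higher (3.24%), while 77.9% lay within 1.5-fold. The median log2 ratio of D5+ over D5 was -0.12, and this shift depended on scaling. Scaling by the expressed probe sets moved the median to -0.01, and scaling by the spiked hybridization controls moved it to 0.04. Lower genes made up 64.5% of the genes past 2-fold as deposited, 53.8% after the first scaling and 49.2% after the second. An excess of lower over higher genes was thus not independent of scaling, and gene groups are read below against the median of all expressed genes. Counts within a group are read beside the shares of all expressed genes, 5.89% lower and 3.24% higher. The groups were chosen with earlier results of these data known, so their counts and medians are descriptions.

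**Figure D1:**
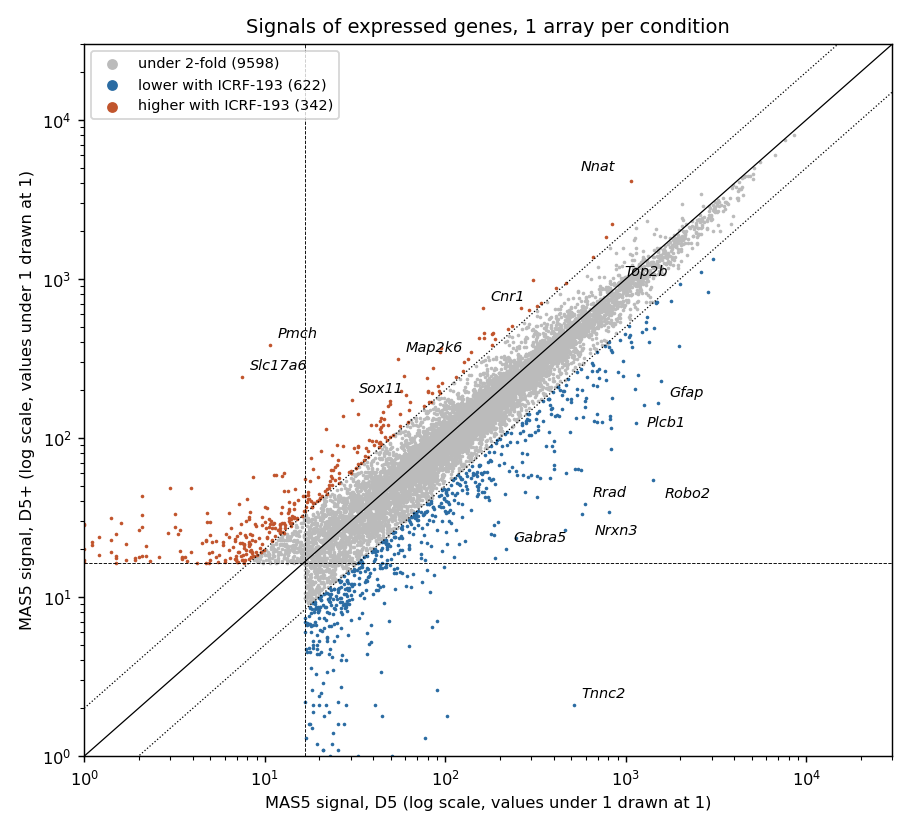
MAS5 signal of each expressed gene on D5 (x axis) and D5+ (y axis), both on log scales, 1 array each. The solid line marks equal signals, dotted lines 2-fold, and dashed lines the floors; 622 genes lie below the lower dotted line and 342 above the upper one.

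Signals near the floor were the least certain. Where a gene had several probe sets, the log2 ratios of the brightest 2 differed with an SD per probe set of 0.56 for mean signals of 20 to 50, 0.23 for signals of 100 to 200 and 0.125 above 1000. These values cover differences between probe sets on the same arrays, and leave out any difference between cultures. Of the lower genes, 257 were under the floor on D5+, and of the higher genes, 202 were under it on D5. For such genes a fold is given against the floor, as "at least". Of 3145 genes with 2 or more expressed probe sets, 307 had one at least 2-fold lower, and in 246 of these every probe set lay below 0. Of 157 with one at least 2-fold higher, every probe set lay above 0 in 106.

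The 12 lowest genes below 0 on both platforms were of several kinds, and included the muscle-type genes Tnnc2 and Cox6a2 and the astrocyte genes Gfap and Aqp4 beside Robo2, Nrxn3 and Gabra5. Robo2, the receptor for the guidance cue Slit, gave a signal of 1424 on D5 and 54.8 on D5+, which is 26.0-fold lower. All 3 of its probe sets were lower, by log2 ratios of -3.93 to -5.24. Nrxn3, a presynaptic adhesion molecule, went from 809.8 to 34.4, and its two-colour log ratio of -3.31 (D5+ over D5, base not stated) was the lowest of the genes named here. Opcml, an adhesion molecule of the IgLON family that is not on the two-colour array, gave 462.2 and 26.5, with both probe sets lower. Gabra5, a subunit of the GABA-A receptor, gave 216.7 and 20.1. Tnnc2, the calcium-binding troponin of fast skeletal muscle, gave 518.8 on D5 and 2.1 on D5+, under the floor, so that it was at least 31.8-fold lower; its two-colour ratio was -1.99. These genes were well above the floor in untreated cells and close to it, or under it, in treated cells.

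Plcb1, a phospholipase C downstream of G protein-coupled receptors, gave 1136 on D5 and 123.5 on D5+. Rbfox1, a neuronal splicing factor, gave 831.8 and 85.1, and its 3 expressed probe sets spanned log2 ratios of -2.71 to -3.29, with a two-colour ratio of -0.31. Cdh13, a cadherin anchored to the membrane without a cytoplasmic tail, gave 542.9 and 63.5. All 3 genes were strong in untreated cells and stayed above the floor in treated ones. Rrad, a small GTPase that restrains calcium channels, gave 594.3 and 38.5. Cox6a2, a cytochrome oxidase subunit of heart and muscle, gave 247.5 and 23.4, with a two-colour ratio of -0.15. The remaining genes of the 12 lowest were Gfap and Aqp4, taken up with the astrocytes, and Lcn2, a secreted siderophore-binding protein, which gave 1264 and 160.2. Of genes that only the Affymetrix array measured, Kcnip4 (322.0 and 57.3) encodes a partner of A-type potassium channels, Drd1 (84.2 and 6.5) the D1 dopamine receptor, Usp2 (138.3 and 35.1) a deubiquitinase and Rbms3 (100.4 and 25.8) an RNA-binding protein. Each had 2 expressed probe sets, both below 0.

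The largest gains began from low signals. Pmch, the precursor of melanin-concentrating hormone, gave 10.7 on D5, under the floor, and 383.2 on D5+, at least 22.9-fold higher, with a two-colour ratio of 1.43. Slc17a6 (VGLUT2), the vesicular glutamate transporter that granule cells use when young, gave 7.5 and 242.4, at least 14.5-fold higher. Sox11, a transcription factor of newborn neurons, gave 30.3 and 173.8. All 3 were at or near the floor in untreated cells. Nnat (neuronatin), a small membrane protein of developing brain, was the exception, since it was already strong at 1068 on D5 and reached 4100 on D5+, a 3.84-fold gain with a two-colour ratio of 2.61. Cnr1, the cannabinoid receptor of neurons, gave 162.8 and 652.5. Map2k6, a kinase upstream of p38, gave 54.9 and 314.6, with a two-colour ratio of 2.13.

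The other 6 of the 12 highest were 3.90- to 5.22-fold higher. They were Lamp5 (21.8 and 113.8), a neuronal membrane protein of the LAMP family, Gfra2 (32.7 and 141.0), the neurturin receptor, Mab21l2 (58.7 and 247.0), Pnlip (18.0 and 74.9), pancreatic lipase, Eomes (20.4 and 83.2), a transcription factor of unipolar brush cells, and Pcp4 (94.1 and 367.3), a calmodulin-binding peptide. For Pnlip and Pcp4 the two-colour ratio was only 0.08 and 0.09, so the second array carried the same sign with little size. Of genes without a two-colour value and with 2 or more expressed probe sets, all above 0, Cadm1 (49.1 and 169.9), an adhesion molecule, and Col1a1 (306.7 and 982.1), a chain of type I collagen, led. Septin8 (44.0 and 133.3), Nol4l (79.3 and 237.9) and Arhgef10l (25.5 and 72.3) came next.

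**Figure D2:**
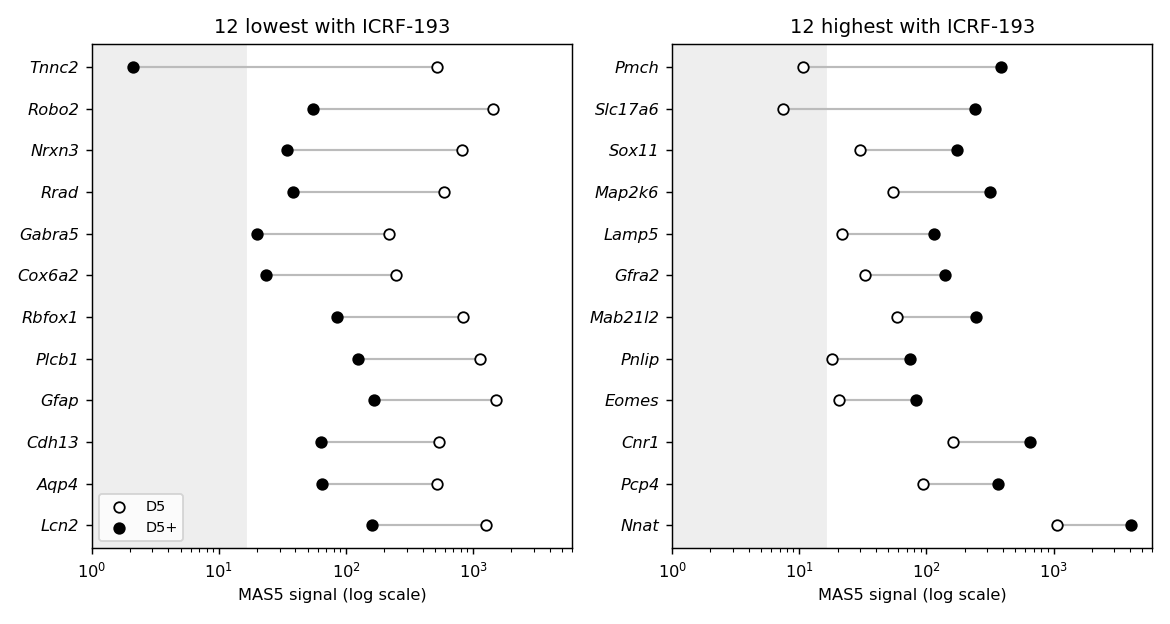
MAS5 signal (x axis, log scale) on D5 (open circles) and D5+ (filled circles) for the 12 lowest and 12 highest genes whose two-colour ratio has the same sign, ranked with low signals raised to the floor. Grey marks signals under the D5+ floor of 16.3, where the D5+ value of Tnnc2 and the D5 values of Pmch and Slc17a6 lie.

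Promoters of genes past 2-fold in either direction held fewer CpG dinucleotides than those of other expressed genes. The RefSeq window ran from 250 bases before to 50 after each gene's start (GRCr8 assembly), and was found for 494 lower, 258 higher and 8079 other expressed genes. The median ratio of observed to expected CpG was 0.667 in lower genes and 0.646 in higher genes, against 0.792 in the others. The medians of GC content lay close together, at 60.3%, 60.0% and 61.7%. Among genes with a signal of at least 100 on either array, the CpG ratios were 0.709, 0.616 and 0.82 in the same order. The letters TATAAA, on either strand, stood in 8.5% of lower, 10.5% of higher and 5.9% of other promoters, and in 14.3% of all 27457 promoters of the table. A match of letters is a description and not a site.

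Leading genes did not share a single kind of promoter. Of the 12 lowest, 9 had a window, and its CpG ratio ran from 0.12 in Tnnc2 and Lcn2 to 0.97 in Gabra5. The 4 stretches below show this range for genes that moved most, beside Top2b, the target of the inhibitor, whose signal was nearly equal on both arrays. They are the 250 bases before the start from RefSeq (GRCr8), 5′ to 3′ on the gene's strand, with each CpG in capitals. Tnnc2 (chr3:173935340-173935589, minus strand) holds 2, Gfap (chr10:88361662-88361911, minus strand) holds 1, Gabra5 (chr1:117516607-117516856, minus strand) holds 37, Slc17a6 (chr1:110348197-110348446, plus strand) holds 9 and Top2b (chr15:11542465-11542714, minus strand) holds 16.
Tnnc2: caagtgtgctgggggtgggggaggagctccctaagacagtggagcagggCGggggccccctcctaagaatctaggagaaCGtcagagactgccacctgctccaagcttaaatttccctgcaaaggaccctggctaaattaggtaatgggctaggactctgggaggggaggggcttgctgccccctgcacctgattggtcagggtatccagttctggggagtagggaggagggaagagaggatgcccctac
Gfap: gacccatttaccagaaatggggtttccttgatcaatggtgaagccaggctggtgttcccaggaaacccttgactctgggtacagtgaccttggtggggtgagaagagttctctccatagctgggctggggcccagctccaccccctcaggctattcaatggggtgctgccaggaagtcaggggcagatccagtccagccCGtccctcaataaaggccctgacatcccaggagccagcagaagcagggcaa
Gabra5: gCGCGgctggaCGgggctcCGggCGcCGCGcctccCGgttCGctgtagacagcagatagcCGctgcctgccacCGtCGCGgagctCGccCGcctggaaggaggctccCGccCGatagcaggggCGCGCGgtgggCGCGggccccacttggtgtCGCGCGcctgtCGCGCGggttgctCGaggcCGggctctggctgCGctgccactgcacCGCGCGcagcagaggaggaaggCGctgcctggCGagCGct
Slc17a6: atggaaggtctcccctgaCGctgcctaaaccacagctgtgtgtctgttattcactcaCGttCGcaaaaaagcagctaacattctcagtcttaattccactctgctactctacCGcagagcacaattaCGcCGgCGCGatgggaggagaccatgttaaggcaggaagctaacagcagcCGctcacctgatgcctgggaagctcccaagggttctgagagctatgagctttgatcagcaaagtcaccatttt
Top2b: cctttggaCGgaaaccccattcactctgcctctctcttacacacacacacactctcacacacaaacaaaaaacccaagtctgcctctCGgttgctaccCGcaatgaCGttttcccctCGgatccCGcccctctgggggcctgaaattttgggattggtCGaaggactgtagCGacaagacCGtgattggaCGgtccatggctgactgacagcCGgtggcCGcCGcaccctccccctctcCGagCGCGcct

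Transcripts of topo II itself showed no loss of the β form. Top2b gave 900.5 on D5 and 933.8 on D5+, with a two-colour ratio of 0.17 and a second probe set at a log2 ratio of -0.27. Top2a was weak, at 62.1 and 31.4, a log2 ratio of -0.98 with a two-colour ratio of -0.31. None of the 10 topoisomerase genes passed 2-fold, and their median was 0.11. The arrays measure mRNA, so the protein is not seen here.

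None of 32 expressed DNA repair genes passed 2-fold, with a median of -0.11 at the level of all genes. On the two-colour array 18 of 25 of them lay below 0, against 51.5% of all genes, with a median of -0.067. Of 28 targets of p53, 3 were lower (10.7%) and 0 higher, with a median of -0.15, and 1 of the 3 was above the floor on both arrays. That 1 was Rprm (reprimo), a mediator of cell cycle arrest, which gave 570.4 and 33.2. Ccng1, another target, gave 1157 and 715.4. Of 27 apoptosis genes 3 were lower and 3 higher. Of the 22 above the floor on both arrays, 0 were lower and 1 higher, namely Bcl2l11 (48.0 and 120.5), which encodes the pro-death protein Bim. Hrk (13.9 and 31.0) was under the floor on D5 and was at least 1.86-fold higher. None of 45 genes of protein folding and heat shock passed 2-fold, and their median equalled that of all genes at -0.12. Of 31 genes of cohesin, condensin, CTCF and the lamins, Ncaph, a condensin subunit, was lower (47.0 and 23.0), and 0 were higher.

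Most of the expressed inhibitory receptor subunits were lower. Of 11 expressed subunits of GABA-A and glycine receptors, 7 were at least 2-fold lower and 1 higher, with a median log2 ratio of -1.17, and 9 of 10 measured on the two-colour array lay below 0, against 51.5% of all genes on both arrays. Gabrb1 gave 400.7 and 63.9, with a two-colour ratio of -2.22. Gabrd, the δ subunit of receptors outside the synapse, gave 500.0 and 167.5, and its 3 probe sets were all past 2-fold. Gabra4 gave 322.4 and 143.2. With signals under the floor raised to it, the median became -0.49, since 4 subunits under the floor on 1 array then weigh less; among the 7 members above the floor on both arrays, 5 were lower. Gabra6, the subunit typical of granule cells, gave 962.7 and 686.4 and was chosen here after its values were seen.

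Glutamate receptors divided by subunit. Of 12 ionotropic subunits, 6 were lower and 0 higher, with a median of -0.83. Grik2, a kainate receptor subunit, gave 188.0 and 17.5. Gria4, an AMPA receptor subunit, gave 151.3 and 44.6, with 3 probe sets from -1.48 to -2.36 and a two-colour ratio of -1.33. Grin2a, the NMDA receptor subunit of mature neurons, gave 178.6 and 54.6, although 1 of its 3 probe sets stood at 0.28. Gria1 was weak (36.8 and 12.7). The AMPA subunit Gria2, named after its values were seen, went the other way with 306.4 and 437.3, under 2-fold, and a two-colour ratio of 0.45.

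Among ion channels, lower genes outnumbered higher ones, as they did over all expressed genes as deposited. Of 40 potassium channel genes, 14 were lower and 3 higher, with a median of -0.58. Kcnd2, the A-type channel Kv4.2, gave 1559 and 227.4, with a two-colour ratio of -1.84, and its partner Kcnip4 was named above. Kcnh1 gave 186.8 and 24.4. Kcnj3, an inward rectifier gated by G proteins, gave 565.6 and 62.6, with both probe sets lower, but its two-colour ratio was 0.08. Of 25 sodium and calcium channel genes, 8 were lower (32.0%) and 0 higher, with a median of -0.26. Of the 20 above the floor on both arrays, 5 were lower. Cacna2d3 (165.5 and 42.4) and Cacna1c (115.6 and 45.4) were above the floor on both arrays, as was Cacnb2 (83.4 and 40.3), while Scn7a (52.1 and 15.0) was at least 3.20-fold lower.

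Genes that handle calcium and cyclic nucleotides held some of the strongest signals past 2-fold. Of 21 genes of calcium release and pumping, 3 were lower and 1 higher. Itpr1, the IP3 receptor, gave 1436 and 489.9, and Ryr2, a ryanodine receptor, gave 224.3 and 62.1. Pvalb (44.2 and 3.4) and Calb2 (3.2 and 33.3), calcium buffers of the cytosol, moved in opposite directions at signals around the floor. Of 32 calmodulin kinase and phosphodiesterase genes, 6 were lower and 4 higher, each on the same side of 0 on the two-colour array. Camk2d gave 2857 and 824.8, and its 3 probe sets ran from -1.79 to -2.36. The cAMP phosphodiesterases Pde4b (839.8 and 179.1) and Pde4d (275.8 and 45.5) were lower, and Camk1g (41.3 and 120.4) was higher with a two-colour ratio of 0.01. Of 39 metabotropic and other G protein-coupled receptor genes, 10 were lower and 6 higher. Of the 26 above the floor on both arrays, 3 were lower and 2 higher. Lower ones included S1pr1 (110.5 and 33.6) and Ntsr2 (98.2 and 15.5). Their two-colour ratios were 0.14 for S1pr1, on the other side of 0, and -0.06 for Ntsr2.

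Genes of the synapse were counted in lists for release, scaffolds and adhesion. Of 46 expressed genes for vesicles and transmitter release, 8 were lower and 4 higher, with a median of -0.49. Syt1, the calcium sensor of fast release, gave 390.4 and 89.0 with a two-colour ratio of -2.13. Cadps2, a factor of dense-core vesicle release, gave 1982 and 380.4. Synpr (synaptoporin) gave 907.8 and 261.3. Against these losses stood Slc17a6, and beside it the VGLUT1 gene Slc17a7, which mature granule cells use, gave 1369 and 774.0 with a two-colour ratio of -0.48; Slc17a7 was picked after its values were seen. Of 22 postsynaptic scaffold genes, 4 were lower and 1 higher, with a median of -0.38. Dlgap1 gave 693.0 and 141.0 with all 4 probe sets lower, Dab1, the adaptor of reelin signalling, gave 385.7 and 142.1, Ank2 gave 1046 and 430.0, and Shank2 was higher (45.4 and 120.2).

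Of 33 neurexins, IgLONs and contactins, 12 were lower and 3 higher, with a median of -0.52, and all 8 of the lower members measured on the two-colour array lay below 0. Besides Nrxn3 and Opcml, the IgLON genes Lsamp (399.5 and 67.7) and Ntm (693.7 and 125.5) were lower. Cadherins split, with 4 of 17 lower and 3 higher and a median of 0.23, above that of all genes. That position depended on the probe set used. With the median of each gene's probe sets in place of the brightest, the list median was -0.13, near the -0.12 of all genes. Pcdh9 (284.5 and 79.1) was lower, while Pcdh18 (36.4 and 86.5) and Cdh10 (42.7 and 92.7) were higher at weak signals. The two-colour ratios were 0.12 for Pcdh18 and 0.0055 for Cdh10. Robo2 was exceptional among 44 axon guidance genes, of which 6 were lower and 2 higher, with a median of 0.01. Ntng1 (156.9 and 60.1), a netrin-G, and Epha5 (206.5 and 88.5), an ephrin receptor, were lower, and Plxnd1 (32.2 and 65.1) was higher.

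Markers of immature neurons past 2-fold were all higher, while most receptor and channel genes past it were lower. Of 31 such markers expressed, which mark granule cell precursors and young neurons, 6 were higher and 0 lower. Their median of 0.02 was close to that of all genes, and the lowest ratio was -0.77. Of the 29 above the floor on both arrays, 4 were higher and 0 lower. On the two-colour array, however, 18 of the 19 markers measured lay above 0, against 48.5% of all genes. The members named here all lay above 0 on the Affymetrix array. Besides Sox11 and Nnat, Dcx (doublecortin), a microtubule protein of migrating neurons, gave 322.2 and 677.1, with probe sets at 1.07 and 1.09 and a two-colour ratio of 1.04. Elavl2, an RNA-binding protein of neurons, gave 124.6 and 261.9. The growth cone gene Gap43, named after its values were seen, gave 1310 and 2300, under 2-fold, with a two-colour ratio of 1.16.

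Genes of mature granule cells were mixed. Of 29, 8 were lower and 3 higher, with a median of -0.30, and 14 of 28 lay below 0 on the two-colour array. Nfib, a transcription factor of granule cell maturation, gave 819.4 and 138.0, with 3 probe sets from -2.05 to -3.48 and a two-colour ratio of -2.08. Of the 29 genes of neurofilaments, tubulins and their motors, 4 were lower and 0 higher. Nefl, the light neurofilament, gave 539.2 and 185.7 with a two-colour ratio of -1.42, and the heavy form Nefh gave 38.5 and 14.2. The medium form Nefm gave 267.6 and 70.3, but its two-colour ratio was 0.48. Dync1i1, a dynein chain, gave 1466 and 702.2. Neurod1, a transcription factor of granule cells chosen here after its values were seen, gave 3072 and 2687.

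**Figure D3:**
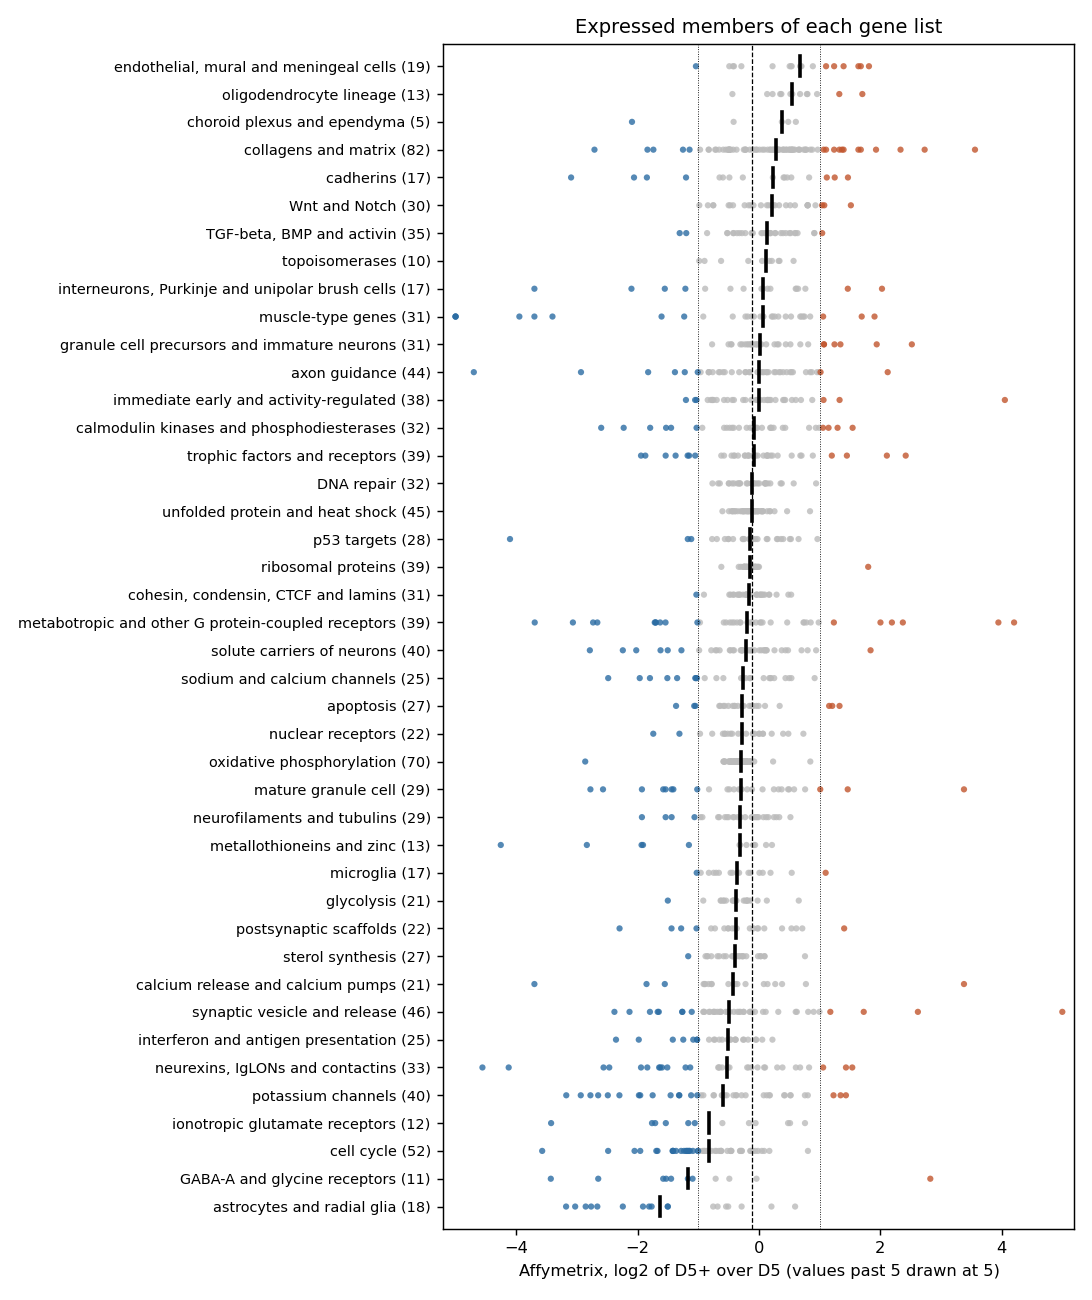
Affymetrix log2 ratio of D5+ over D5 (x axis) for every expressed member of 42 gene lists (the 2 that the study picked on these arrays are not drawn), with the number of members in brackets; bars mark list medians, the dashed line the median of all expressed genes (-0.12), dotted lines 2-fold, and blue and orange points genes past it. Astrocyte markers (-1.64) and GABA-A and glycine receptors (-1.17) have the lowest medians of the 42, and endothelial, mural and meningeal markers the highest (0.68). All lists were chosen with earlier results of these data known.

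Markers of cells other than granule cells moved in both directions. In a bulk sample, fewer cells of a type and less RNA per cell cannot be told apart. Of 18 expressed astrocyte and radial glia markers, 11 were lower and 0 higher, with a median of -1.64, and their summed signal went from 9149 to 4517. Gfap, the intermediate filament of astrocytes, gave 1512 and 167.0 with a two-colour ratio of -2.29. Aqp4, the astrocyte water channel, gave 523.9 and 64.2, with all 3 probe sets lower and a two-colour ratio of -0.25. Mlc1 gave 179.5 and 24.8, and the glutamate transporter Slc1a3 gave 1170 and 247.2 with a two-colour ratio of -2.32. Not every marker followed, as S100b (339.3 and 512.9) and Gja1 (921.2 and 1063), named after their values were seen, were not lower. Metallothioneins, which astrocytes also express, were lower too, with Mt2A at 824.9 and 115.5 and Mt3 at 593.0 and 157.7. Mt3 is also counted among the astrocyte markers. In the list of metal-handling genes, 5 of 13 were lower and 0 higher. Of the 10 above the floor on both arrays, 2 were lower.

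Many cell cycle genes were lower, from already weak signals. Of 52 expressed, 20 were lower and 0 higher, with a median of -0.83, and all 17 of the lower ones measured on the two-colour array lay below 0. Mki67, a marker of dividing cells, gave 73.3 and 17.7 with a two-colour ratio of -0.95. Ccna2 (cyclin A) gave 64.4 and 11.5, Prc1 gave 123.4 and 31.8, and Cdk1 gave 95.9 and 30.1. Of the 43 above the floor on both arrays, 12 were lower. ICRF-193 and the cytosine arabinoside shared by both groups each act on dividing cells, and what part such cells had in the lower genes was not tested.

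Of 19 endothelial, mural and meningeal markers, 6 were higher and 1 lower, with a median of 0.68 and a summed signal that went from 4101 to 8690. On the two-colour array, 9 of 15 lay above 0. Collagen genes led, with Col3a1 at 841.1 and 2212 and Col1a2 at 774.2 and 1828, the latter with a two-colour ratio of 1.31. Lum (38.9 and 121.2), a matrix proteoglycan, was higher with a two-colour ratio of 0.04. In the wider list of collagens and matrix, 12 of 82 were higher and 5 lower, with a median of 0.28, and 37 of 56 lay above 0 on the two-colour array. Col6a3 gave 27.2 and 137.1 and Fbn2, a fibrillin, gave 8.6 and 57.1, whereas Mgp, an inhibitor of calcification, was lower at 1339 and 400.9, as was Fmod at 185.9 and 28.4. The parts of more fibroblasts and of more collagen RNA per cell were not tested.

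The remaining cell types showed smaller shifts. Of 13 oligodendrocyte lineage genes, 2 were higher and 0 lower, with a median of 0.55. Cldn11, a claudin of myelin, gave 261.7 and 655.4 with a two-colour ratio of 1.34, while Sox10 (14.7 and 47.9) had a two-colour ratio of -0.02. Of 17 microglial markers, 1 was higher (Tmem119, 35.7 and 76.5) and 1 lower (Trem2, 39.7 and 19.5). A second probe set of Trem2 stood at a log2 ratio of 0.28, and the two-colour ratio of Trem2 was 0.01. The median of the microglial markers was -0.36, and 12 of 14 lay below 0 on the two-colour array. Of 17 markers of interneurons, Purkinje cells and unipolar brush cells, 4 were lower and 2 higher. Sst (somatostatin) gave 577.5 and 134.6 with a two-colour ratio of -1.39, and Gad2, an enzyme of GABA synthesis, gave 31.2 and 86.1. Of 5 expressed genes of choroid plexus and ependyma, Aqp1 was lower (250.3 and 58.7) and Ttr, the main secreted protein of choroid plexus, gave 2622 and 3408.

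Few genes of energy supply and sterol synthesis passed 2-fold, while their medians lay below that of all genes. Of 70 genes listed for oxidative phosphorylation, only 1 was past 2-fold, lower, yet the median was -0.30 and 43 of 47 lay below 0 on the two-colour array. The 1 was Cox7a1, a cytochrome oxidase subunit of muscle, which was weak (21.1 and 2.9, under the floor on D5+), was at least 1.29-fold lower, has no two-colour value and was named after its values were seen. Cox6a2 (247.5 and 23.4), named above, is also a cytochrome oxidase subunit but was counted with the muscle-type genes. Ndufa3 (828.4 and 551.7), Uqcrq (1817 and 1217) and Cox6b1 (3241 and 2175) were among the members with the lowest ratios. Of 27 genes of sterol synthesis, Cyp51 was lower (927.7 and 413.5), the median was -0.39, and 22 of 26 lay below 0 on the two-colour array, with Idi1 (629.8 and 342.0) and Insig1 (253.5 and 141.0) among them. Of 21 glycolysis genes, Aldoc, an aldolase that astrocytes express, was lower (499.8 and 176.5), and the median was -0.38, while 11 of 19 lay below 0 on the two-colour array. By contrast, 39 ribosomal protein genes had a median of -0.15, and 13 of 26 lay below 0 on the two-colour array. The only one past 2-fold was Rpl39 (18.4 and 64.1), which is one of many ribosomal genes with near-identical copies, so its value is uncertain.

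Counts past 2-fold were small in most of the signalling families below, and differences between the families were not tested. Of 38 immediate early and activity-regulated genes, 3 were lower and 3 higher (7.89% each). Among them were Rgs4 (826.5 and 359.0) and Scg2 (1484 and 715.6), both lower on both platforms, and Gadd45b (32.4 and 81.4), higher. Of 39 trophic factors and receptors, 7 were lower (17.9%) and 4 higher (10.3%), against 5.89% and 3.24% of all genes. Gfra2 led the higher ones, and Fgf14, which regulates sodium channels, was lower (106.9 and 29.2). Of 35 TGF-β, BMP and activin genes, 2 were lower, Acvr1c (92.5 and 37.4) and Smad3 (70.2 and 30.6), and 1 was higher. These shares, 5.71% and 2.86%, were near those of all genes. Of 30 Wnt and Notch genes 3 were higher and 0 lower, with Jag1, a Notch ligand, at 45.9 and 131.2 and a two-colour ratio of 0.68. Of 22 nuclear receptors 2 were lower, of which Nr2f1 gave 147.8 and 59.6. Of 40 solute carriers and related genes of neurons, 6 were lower, Car10 (361.1 and 88.9) among them, and Fxyd7 (25.2 and 90.2) was higher.

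Muscle-type genes and immune genes each held a few low ratios of D5+ over D5. Of 31 muscle-type genes, 8 were lower and 3 higher, with a median of 0.07. Of the 23 above the floor on both arrays, 3 were lower and 2 higher. Actn2, the α-actinin of muscle, gave 102.0 and 1.8, at least 6.26-fold lower, but its two-colour ratio was 0.03. Of 25 interferon and antigen presentation genes, 7 were lower and 0 higher, with a median of -0.52. Of the 18 above the floor on both arrays, 2 were lower. Cd74, the invariant chain, gave 60.4 and 11.8, Isg15 gave 40.4 and 15.1 and Psmb9 gave 68.8 and 33.9. On the two-colour array, 9 of the 21 measured lay below 0, a share below the 51.5% of all genes. The chemokine Ccl2 was lower on both platforms, at 769.9 and 380.0 with a two-colour ratio of -0.96.

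The study asked whether dependence on topo IIβ goes with long AT-rich regions between genes, and picked examples of dependent genes on these arrays. They are therefore no independent evidence of direction. The study grouped a gene as dependent if any of its probe sets qualified, whereas the brightest was used here. Of 7 expressed genes that it lists beside such regions, 5 were lower, with a median of -1.79, or -1.39 with low signals raised to the floor. Kcnd2, Pde4b and Camk2d led, and Cntn4, a contactin, gave 42.6 and 11.9 with a two-colour ratio of -2.61. Of 10 that it lists away from such regions, 9 were lower, with a median of -1.50. Rrad, Mt3, Car7 (49.0 and 7.1) and Cpne9 (63.3 and 21.2) were among them. The positions of such regions were not used here.

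The two-colour array was a second measurement of the same comparison, and whether it used the same RNA is not given in the sources used here. Its values were turned so that above 0 means higher with ICRF-193. Of the lower genes, 432 had a two-colour value, and 351 of these (81.2%, Wilson 95% interval 77.3% to 84.6%) lay below 0. Of the higher genes, 156 of 206 (75.7%, 69.4% to 81.1%) lay above 0. These intervals reflect only how many genes were counted. If the two-colour values are log2, 63 of the 432 lower genes (all genes, 1.03%) and 24 of the 206 higher ones (all genes, 1.01%) were past 2-fold the same way there. If they are natural logs, 117 (all genes, 2.06%) and 45 (all genes, 2.21%) were. Among all 6925 expressed genes on both platforms, Pearson's r across genes was 0.49 and Spearman's rho 0.47, where genes are not independent replicates.

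The share on the same side grew with signal. For lower genes whose higher signal was under 50, 112 of 172 lay on the same side, and for those from 50 to 100, 61 of 69. From 500 to 1000 it was 38 of 39, and at 1000 or more 21 of 21. For higher genes it was 79 of 120 under 50 and 17 of 17 from 200 to 500. Weak genes past 2-fold thus held most of the disagreement. The 5 genes past 2-fold with the largest two-colour ratio of the other sign were all lower on the Affymetrix array with D5 signals of 16.8 to 79.0. Smco4 gave 79.0 and 28.6 with a two-colour ratio of 0.81, Adcy9, an adenylyl cyclase, gave 44.1 and 18.1 with 0.85, and Art1, Phf19 and Sox7 were under the floor on D5+.

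**Figure D4:**
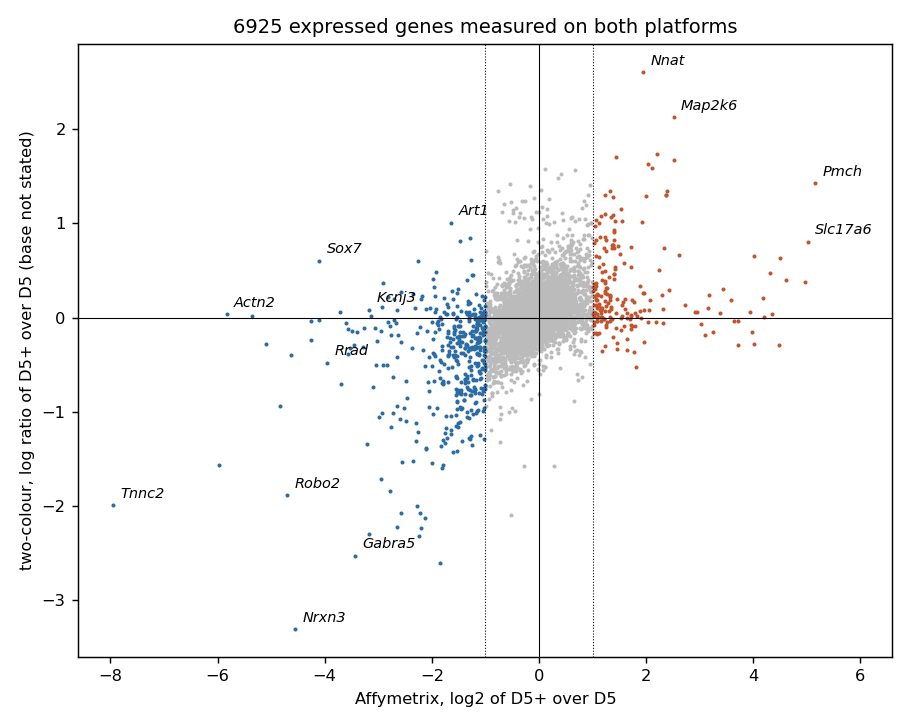
Affymetrix log2 ratio (x axis) against the two-colour log ratio of unstated base (y axis), both D5+ over D5, for 6925 expressed genes; blue genes are at least 2-fold lower and orange genes at least 2-fold higher on the Affymetrix array. Of the blue genes 351 of 432 lie below 0 on the y axis, and of the orange genes 156 of 206 above it.

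**Figure D5:**
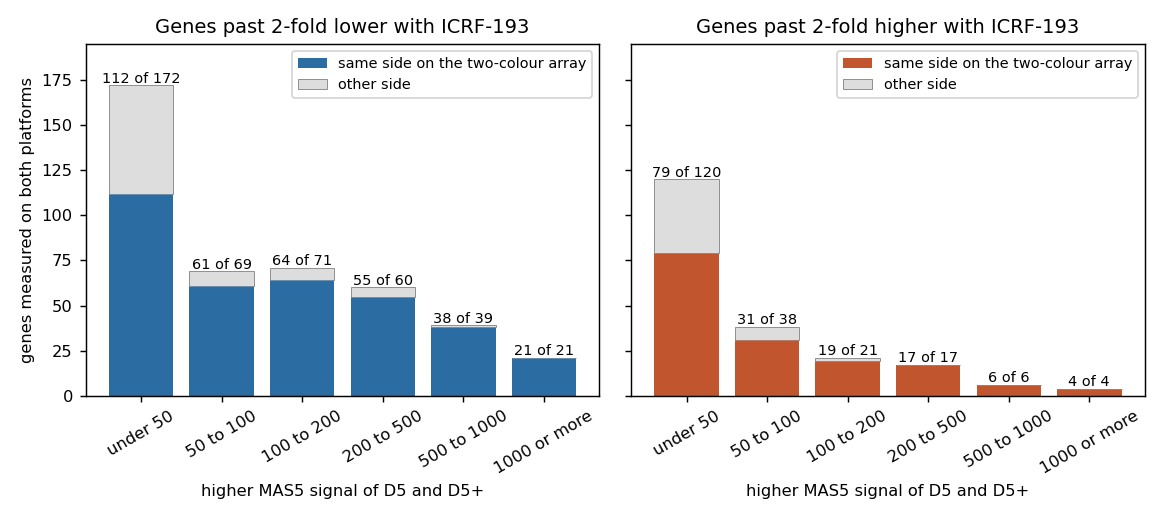
Number of genes past 2-fold and measured on both platforms (y axis) by the higher of the D5 and D5+ signals (x axis); the coloured part of each bar has the same side of 0 on the two-colour array and the grey part the other side. Agreement runs from 112 of 172 to 21 of 21 in lower genes and from 79 of 120 to 4 of 4 in higher genes.

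Lower genes stood next to each other more often than other genes did. The expressed genes were put in the order of the GRCr8 assembly, which gave 10532 adjacent pairs. The next gene was lower for 68 of 619 lower genes (11.0%), against 5.91% over all pairs. For higher genes it was 14 of 342 (4.09%), against 3.25%. Among genes with a signal of at least 100 on either array, the shares for lower genes were 11.6% against 4.33%, and for higher genes 0 of 72 against 1.24%. Several pairs are members of one family, such as Gabrb1 and Gabra4, Opcml and Ntm, Nefl and Nefm, and Mt1, Mt2A and Mt3 in a row, where shared sequence between members can add to shared signals. Others are not, such as Camk2d with Ank2, Pde4d with Rab3c, Synpr with Cadps, and Rrad with Pdp2 and Car7 in a row. The difference between these shares was not tested, nor was the part of families in it.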

How the data were processed

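Total RNA of cultured rat cerebellar granule cells on day 5, without (D5) and with 10 µM ICRF-193 (D5+), was measured on 1 Affymetrix array each and on 1 two-colour array. For the Affymetrix arrays the authors deposited a linear intensity per probe set, made with GCOS and MAS5, for which no version is given in the sources used here. Normalization by the 50th percentile is named in the methods, yet median signals over the 31042 probe sets other than controls were 29.2 on D5 and 28.0 on D5+; no further scaling was applied in the main result. The two-colour file as deposited holds a score, namely log ratios of Cy5 over Cy3 whose base and normalization are not given, with a median of 0.0015 and 96 of 20500 missing. Their sign was turned, and a gene's probes were averaged.

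The array annotation, updated through RefSeq (GRCr8, for names and gene order), gave 1 symbol to 20826 probe sets and 12750 two-colour probes, and several to 436 probe sets. A gene took its brightest expressed probe set, by mean log2 over D5 and D5+; a signal of 0 was read as 0.1. The floor was the 40th percentile of each array and the threshold 2-fold. Named genes were ranked by log2 D5+/D5 with low signals raised to the floor: 12 lowest and 12 highest with the same two-colour sign, 5 each way with no two-colour value and 2 or more probe sets of one sign, 5 of opposite sign, up to 4 per list, Top2a and Top2b; others are said to be chosen after their values were seen. Members and the 44 lists (4 names unmatched) were chosen with earlier results of these data known. Values were computed in Python 3.11.15 with numpy 2.4.6, pandas 2.3.3 and scipy 1.17.1. Gene values and calls were tested on simulated arrays where strong genes changed by large folds with little noise. That test does not cover weak signals or the other steps. Day 1 arrays, protein sequences and gene lengths were not used here.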

Additional observations from a re-analysis of the deposited data

How the results depend on the processing

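As deposited, 622 genes were lower and 342 higher. Under the 4 scalings these counts were within 1.5 times of that, at 479 to 553 lower and 391 to 494 higher, and the median of all expressed genes ran from -0.058 (median of all probe sets) to 0.044 (spiked controls). The floor and the threshold moved the counts further. A floor at the 20th percentile gave 1217 lower and 880 higher, one at the 60th 356 and 130, and no floor 1514 and 1239. Asking for signals above the floor on both arrays gave 366 and 140, adding the floor to every signal 308 and 111, and raising low signals to the floor 437 and 172. A 1.5-fold threshold gave 1494 and 840, a 3-fold threshold 247 and 130, and probe sets in place of genes 1289 and 789. The share of lower genes below 0 on the two-colour array was 76.9% where every probe of the gene had to lie there and 91.9% with the 60th percentile floor. The share of higher genes above 0 was 87.8% with that floor and 68.8% at 3-fold. Pearson's r was 0.619 with that floor, 0.271 with no floor and 0.573 with low signals raised. The 4 scalings kept the side of every list's median against all genes, except for DNA repair, trophic factors and protein folding, which lay within 0.04 of it. Settings for neighbours and promoters were chosen after seeing the data, and the neighbour share stayed between 10.1% and 11.6%. No named gene past 2-fold changed sign under the alternatives that gave it a value, but weak ones fell short of 2-fold with low signals raised to the floor, such as Sox7 (-4.10 to -0.56), Mt1 (-4.25 to -0.37), Phf19 (-1.26 to -0.04) and Art1 (-1.64 to -0.70). No paired analysis was possible because each condition had 1 array. The cause of these differences was not tested.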
